A study of Mus musculus with 21 samples.

Results

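The IL-1 and IL-18 system was taken as 8 genes of the 23250 in the deposited raw table. They are a fixed list of names, matched through gene IDs with no threshold on measured values, and all 8 passed the filter on low counts. The agonist ligands were Il1a, Il1b and Il18. The inhibitors were Il1rn, which encodes the IL-1 receptor antagonist, and Il18bp, which encodes the IL-18 binding protein. The receptors were Il1r1, the signalling receptor, its co-receptor Il1rap, and the decoy receptor Il1r2. Expression was measured by RNA sequencing in macrophages grown from mouse bone marrow of C57BL/6J background for 7 days with GM-CSF, given as 2.5% supernatant of a producing cell line. The series describes the macrophages as deficient in the mannose receptor, encoded by Mrc1, so that controls and treated cells share this deficiency. It asked what the soluble form of that receptor does to such cells. Untreated cells were taken at 0 h. Other cells received FcMR, in which the extracellular region of the receptor is joined to the Fc part of human IgG1, or an isotype control, for 4, 12 or 24 h. Each of the 7 groups held 3 libraries, 21 in all. The protein doses and the allele behind the deficiency are not given in the sources used here. No label says that the libraries of a group came from separate mice or cultures, so p-values measure the spread between these libraries, which may be technical. Untreated cells are present at 0 h alone, which means that an effect of the isotype control and one of time in culture cannot be told apart.

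As background, IL-1α and IL-1β bind the receptor encoded by Il1r1, which then recruits the co-receptor encoded by Il1rap and signals through MyD88. The IL-1 receptor antagonist occupies the same receptor without recruiting the co-receptor, and the decoy receptor binds ligand but lacks a signalling domain. IL-18 acts through its own pair of related receptors and is held inactive in solution by the IL-18 binding protein. IL-1β and IL-18 are made as precursors that caspase-1, activated in inflammasomes, cuts into their active forms. Macrophages are a major source of IL-1β, and transcript levels do not show how much protein was cut or released.

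Library totals ranged from 5532225 to 66729533 counts, a 12.1-fold range. The level that 3 counts give, used as the floor, ran from 0.0454 to 0.559 CPM (counts relative to library size, scaled by trimmed means of M-values). Such floors cover counting error only. Mrc1 had between 0 and 11 counts in every library. The 8 genes of the macrophage list, among them Lyz2 and Csf1r, were all detected and summed to 20411 to 35843 CPM per library. Most of this sum was Lyz2, with group means of 17926 to 28184 CPM. The 6 genes of the dendritic cell list summed to 2783 to 4709 CPM. Such sums give no proportion of cell types. By overall expression, 18 of 21 libraries were nearest to a library of their own group. The exceptions were isotype 4 h replicate 1 and replicate 3 and FcMR 12 h replicate 1. The last 2 of these also stand in each other's place in the order of library numbers in the titles, and results were also computed without them. The mean log2 deviation of GC-rich genes minus that of GC-poor genes ran from −1.61 to 0.833 between libraries.

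FcMR raised both IL-1 agonists many-fold over the isotype control at every time, and raised the antagonist Il1rn by a smaller factor. The signalling receptor Il1r1 was called lower after 4 h of FcMR, on 8 to 41 counts in the FcMR libraries. From 12 h on the decoy Il1r2 was higher. Il18bp was called at each time and Il18 up to 12 h. The calls of Il1r1 and Il18 at 4 h depended on single libraries, each being lost in 4 of 6 fits with 1 library left out. At 4 h, edgeR's quasi-likelihood test with Benjamini-Hochberg adjustment over all genes called 6 of the 8 genes, 5 higher and 1 lower, where 17.7% of the 13468 genes tested were called, 8.62% higher and 9.13% lower. At 12 h it called 6, all higher, beside 16.1% of all genes (8.61% higher, 7.49% lower). At 24 h it called 5, all higher, beside 20.9% of all genes (11.4% higher, 9.44% lower). The median log2 fold change of the 8 genes was 0.82, 0.78 and 0.60 at 4, 12 and 24 h, beside −0.07, −0.02 and 0.01 over all genes tested. The FcMR and isotype libraries did not overlap for 6, 6 and 7 of the 8 genes, beside 29.7%, 35.4% and 34.4% of all genes. Without both libraries out of title order, 6 of the 8 were called at each of the 3 times. Over 15 alternatives for each comparison, 4 to 7 were called at 4 h, 5 to 7 at 12 h and 4 to 6 at 24 h.

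**Figure D1:**
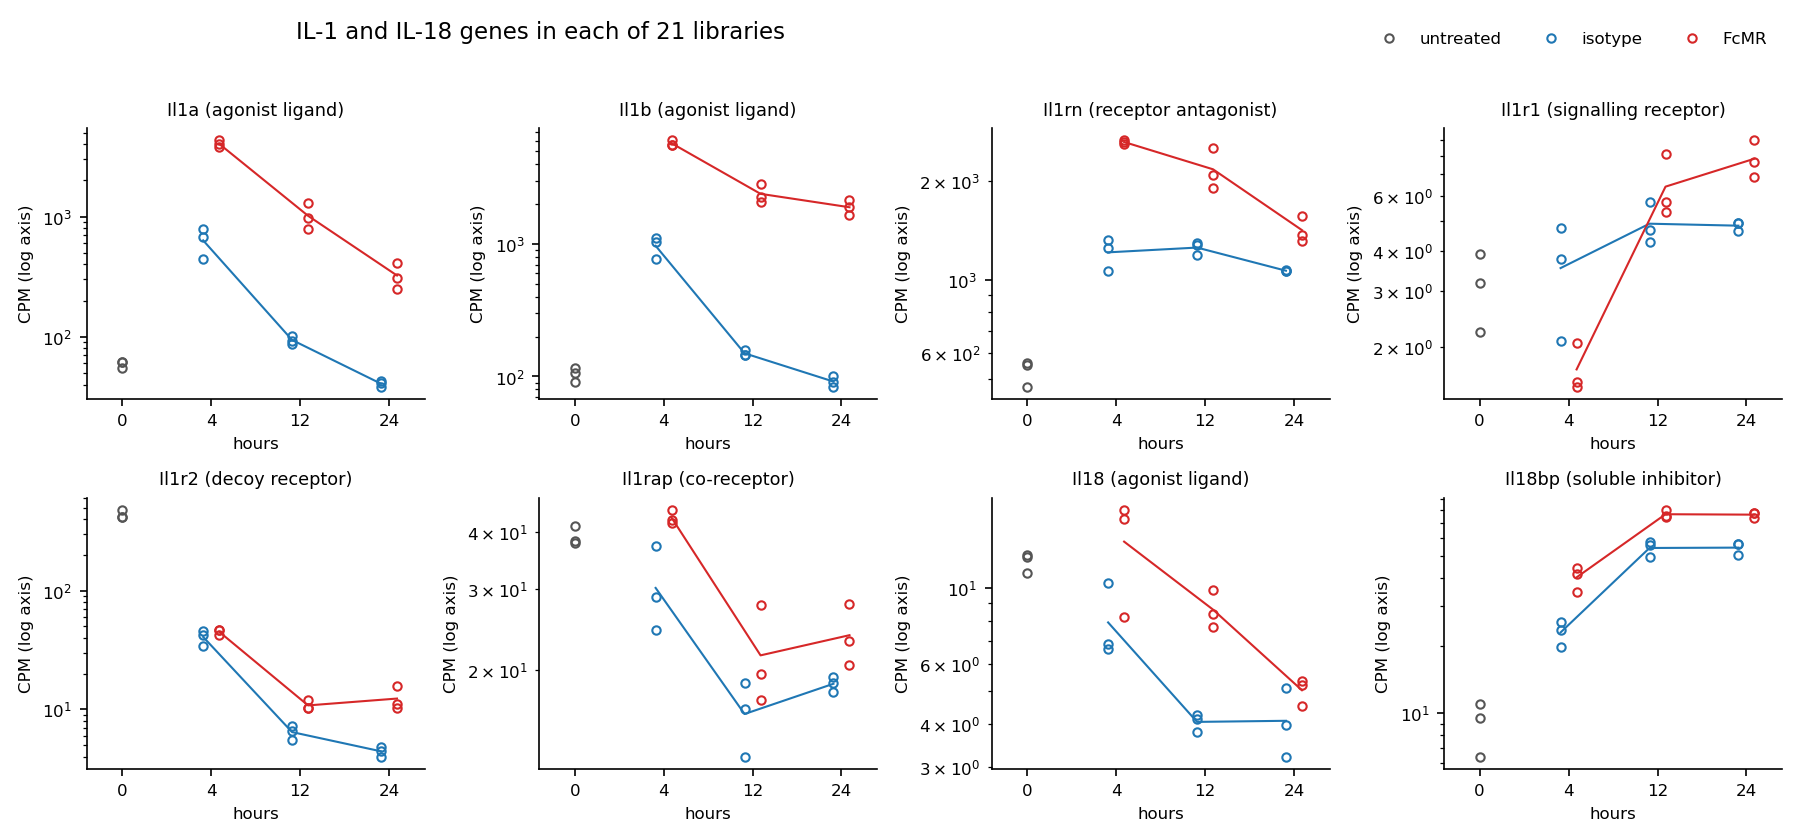
Level of each of the 8 genes in CPM (log axis) against hours of treatment (times evenly spaced) in untreated (grey), isotype (blue) and FcMR (red) libraries. Each circle is 1 library and lines join group means. The FcMR libraries of Il1a and Il1b lie above all isotype libraries at each time, while Il1r2 falls from untreated cells in both arms.

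Il1a (ENSMUSG00000027399.1; GRCm38 chromosome 2, 129299610 to 129309972, minus strand) encodes IL-1α, whose precursor is already active and acts as an alarm signal when cells are damaged. Its level was 54.7, 61.1 and 61.3 CPM in the untreated libraries. At 4 h it was 4308, 4012 and 3766 CPM with FcMR and 679, 783 and 439.8 CPM with isotype. Every FcMR library was therefore above every isotype library, and the lowest of the isotype values belonged to replicate 3. At 12 h the FcMR libraries held 1295, 964 and 785 CPM and the isotype libraries 92.5, 102 and 87.6. At 24 h they held 308, 411 and 251 CPM, against 41.3, 38.2 and 42.6 with isotype. The 2 groups stayed apart at each time while both came down. The log2 fold change of FcMR over isotype was 2.67 (SE 0.211, edgeR adjusted p 1.44e-07) at 4 h, 3.43 (SE 0.219, edgeR adjusted p 9.11e-09) at 12 h and 2.99 (SE 0.217, edgeR adjusted p 1.71e-08) at 24 h, or 6.36-fold, 10.8-fold and 7.95-fold. The order of the group means ran from FcMR 4 h (4029 CPM) over FcMR 12 h (1015), isotype 4 h (634), FcMR 24 h (323), isotype 12 h (94.1) and untreated (59) to isotype 24 h (40.7), and no neighbours in that order overlapped.

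Il1b (ENSMUSG00000027398.13; GRCm38 chromosome 2, 129364570 to 129371139, minus strand) encodes IL-1β, the secreted agonist that drives fever and recruits neutrophils. In untreated libraries it was at 90.7, 116 and 107 CPM. At 4 h it was at 5596, 6070.2 and 5638 CPM with FcMR and 1035, 1108 and 768 CPM with isotype. At 12 h it was at 2865, 2256 and 2062 CPM with FcMR and 146, 158 and 145 CPM with isotype. The groups were further apart at 12 h than at 4 h, and the isotype libraries had come down more than the FcMR libraries. At 24 h the FcMR libraries still held 1891, 2134 and 1664 CPM, where the isotype libraries held 83.3, 91.4 and 100 CPM and overlapped the untreated ones. The log2 fold change of FcMR over isotype was 2.57 (SE 0.15, edgeR adjusted p 4.3e-09) at 4 h, 4.00 (SE 0.16, edgeR adjusted p 2.72e-11) at 12 h and 4.37 (SE 0.163, edgeR adjusted p 5.19e-12) at 24 h, which is 5.95-fold, 16-fold and 20.7-fold. Il1b overlaps Il1bos, an antisense gene that reached a group mean of 19.5 CPM with FcMR at 4 h. Il1a overlaps Gm14023, with a group mean of at most 3.23 CPM. No label states that counting used strand, so reads of these partners cannot be told from each other, and their levels were under 1% of those of Il1a and Il1b in the FcMR 4 h libraries.

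The course of Il1a and Il1b with FcMR was not the same. Within a library, the log2 level of Il1a minus that of Il1b was −0.52 ± 0.123 (SD, n = 3), −1.25 ± 0.126 and −2.57 ± 0.18 with FcMR at the successive times. With isotype it was −0.64 ± 0.153, −0.67 ± 0.0536 and −1.17 ± 0.136 at these times, and in untreated cells −0.82 ± 0.0987. The FcMR and isotype values overlapped at 4 h and were apart at 12 and 24 h. From 4 to 24 h of FcMR, Il1a fell by 3.64 on the log2 scale (SE 0.22, edgeR adjusted p 4.17e-10) and Il1b fell by 1.61 (SE 0.145, edgeR adjusted p 6.74e-08).

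Il1rn (ENSMUSG00000026981.15; GRCm38 chromosome 2, 24336853 to 24351494, plus strand) encodes the antagonist, with secreted and intracellular forms that start at different promoters and are not separated in gene-level counts. It was at 474, 551 and 562 CPM in untreated libraries. After 4 h it was at 2636, 2664 and 2599 CPM with FcMR and 1251, 1327 and 1071 CPM with isotype. At 12 h it was at 2522, 2090.4 and 1913 CPM with FcMR and 1281, 1302 and 1190.1 CPM with isotype. Every FcMR library was above every isotype library at both times, and both groups were above untreated cells. At 24 h the FcMR libraries held 1377, 1573 and 1313 CPM and the isotype libraries 1065, 1075 and 1069. The log2 fold change was 1.11 (SE 0.105, edgeR adjusted p 1.3e-06) at 4 h, 0.79 (SE 0.105, edgeR adjusted p 3e-05) at 12 h and 0.41 (SE 0.104, edgeR adjusted p 0.00804) at 24 h. The call at 24 h was lost without FcMR replicate 2 (0.34, edgeR adjusted p 0.061) and with limma on the authors' normalized values (0.25, limma adjusted p 0.0865).

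Since inhibitor and agonist compete, their levels were also compared within each library. Il1rn minus Il1b was 2.34 ± 0.082 on the log2 CPM scale (SD, n = 3) in untreated libraries. With isotype the successive times gave 0.34 ± 0.123, 3.07 ± 0.0545 and 3.55 ± 0.129. With FcMR they gave −1.13 ± 0.0521, −0.13 ± 0.0434 and −0.41 ± 0.0626. The value was below 0 in all 9 FcMR libraries and above 0 in all 12 others, with the lowest of these at 0.26 and the highest FcMR library at −0.11. The isotype libraries of 12 and 24 h lay above the untreated ones, and those of 4 h and all FcMR libraries lay below. Per kilobase of the median coding transcript, which is nearly the same for Il1rn (1357 bases) and Il1b (1356 bases), the mean levels with FcMR at 4 h were 1940.3 CPM for Il1rn and 4254 CPM for Il1b. In untreated cells they were 389.8 and 77.4 CPM per kilobase. With the longest Il1rn transcript of 2474 bases, the levels of Il1rn become 1064 and 214 CPM per kilobase, and with isotype at 4 h the order of both genes turns with this choice (896 or 492 for Il1rn, 716 for Il1b). With 1 length per gene in all groups, the change of the difference between groups does not depend on that length. Whether the use of long and short Il1rn transcripts differed between groups was not tested. With the authors' normalized values, the FcMR minus isotype change of Il1rn minus Il1b was −3.37 at 12 h and −4.07 at 24 h, somewhat larger than in the main values. Against Il1a, Il1rn minus Il1a was 3.16 ± 0.0409 in untreated libraries, 0.98 ± 0.274, 3.74 ± 0.0633 and 4.71 ± 0.0872 with isotype, and −0.61 ± 0.0888, 1.12 ± 0.162 and 2.16 ± 0.226 with FcMR at 4, 12 and 24 h. The FcMR libraries thus stayed below the untreated ones in this difference too, and the isotype libraries of 12 and 24 h were above them.

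**Figure D2:**
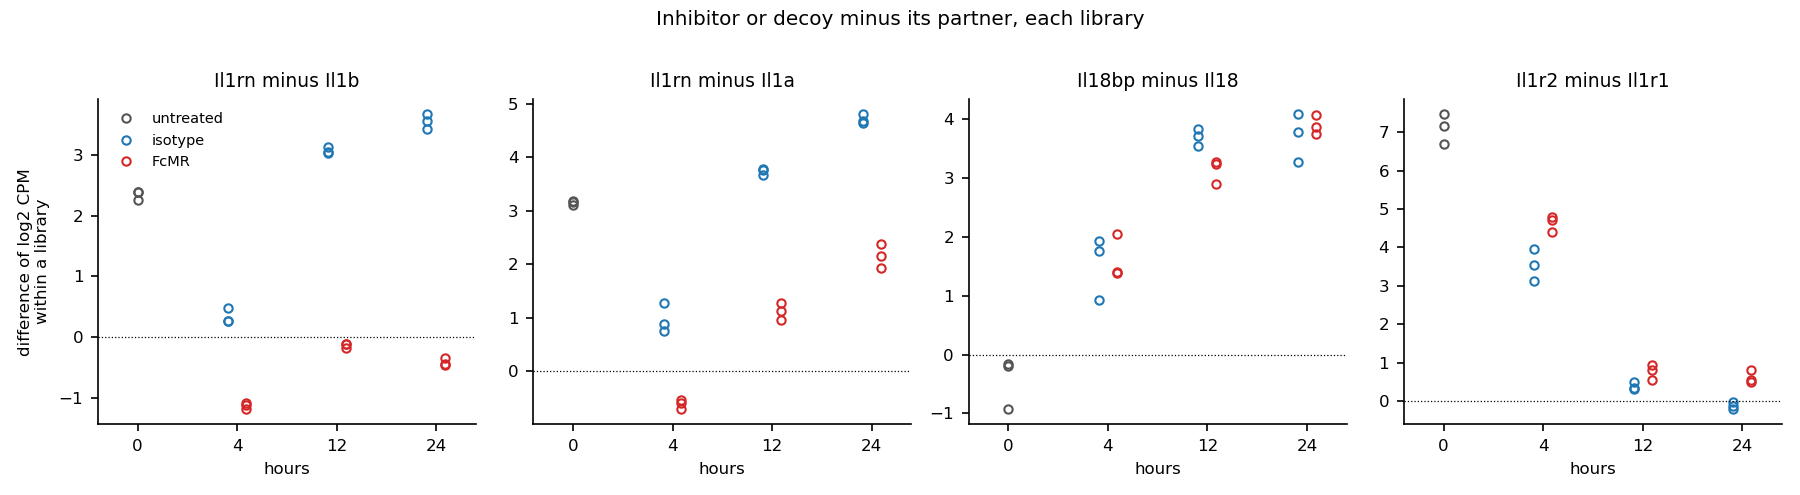
Difference of log2 CPM between an inhibitor or decoy and its partner within each library, against hours (evenly spaced), for untreated (grey), isotype (blue) and FcMR (red) libraries, each circle being 1 library. For Il1rn minus Il1b all 9 FcMR libraries lie below 0, and for Il18bp minus Il18 the groups overlap at 4 and 24 h.

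The promoters of both IL-1 agonists and of their antagonist are shown. Il1a, Il1b and Il1rn were each called higher with FcMR at every time, the agonists by more. Il18bp was also called higher at every time, but its promoter sequence is not shown. The sequences shown are the 250 bases before a RefSeq start site (GRCm38.p6), read 5′ to 3′ on the strand of the gene. Motif matches found by search are in capitals.
Il1a, chr2:129309973-129310222, minus strand: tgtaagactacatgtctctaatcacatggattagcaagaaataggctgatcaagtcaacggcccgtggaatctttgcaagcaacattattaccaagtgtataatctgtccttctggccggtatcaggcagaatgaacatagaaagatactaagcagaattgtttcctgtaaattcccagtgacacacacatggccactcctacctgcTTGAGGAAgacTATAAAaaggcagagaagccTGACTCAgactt
Il1b, chr2:129371140-129371389, minus strand: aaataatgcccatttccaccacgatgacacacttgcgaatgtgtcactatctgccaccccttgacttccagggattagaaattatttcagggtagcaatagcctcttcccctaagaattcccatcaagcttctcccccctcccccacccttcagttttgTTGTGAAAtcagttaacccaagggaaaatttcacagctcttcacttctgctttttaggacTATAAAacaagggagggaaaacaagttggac
Il1rn, chr2:24345041-24345290, plus strand: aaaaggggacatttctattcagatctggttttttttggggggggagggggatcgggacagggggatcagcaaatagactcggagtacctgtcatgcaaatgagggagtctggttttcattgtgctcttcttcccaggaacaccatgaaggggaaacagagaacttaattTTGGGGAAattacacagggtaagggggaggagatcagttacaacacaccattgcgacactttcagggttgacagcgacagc
In Il1a the capitals mark, in order, a C/EBP match (TTNNGNAA) that begins 43 bases before the start site, a TATA box (TATAAA) 32 bases before it and an AP-1 match (TGANTCA) 12 bases before it. In Il1b they mark a C/EBP match 91 bases and a TATA box 31 bases before the start site, and in this window of Il1rn, the second of 3, a C/EBP match 81 bases before it. Past the bases shown, the second Il1rn window also held overlapping C/EBP matches that begin at 15 and 16 from its start site. The first Il1rn window, not shown, held an AP-1 match that begins at −141 from its start site. The third overlaps the second and held the same C/EBP sites and, on the other strand, a TATA box. The search covered both strands of windows of 300 bases, the 250 shown and the next 50, and also included the PU.1 motif (GAGGAAGT), the interferon-stimulated response element and the kappaB consensus. RefSeq windows were found for all 8 genes, 3 of them for Il1rn and 2 for Il1r1. Of 32851 windows of this length, 40.7% held a C/EBP match, 13.6% a TATA box, 7.81% an AP-1 match, 8.46% a kappaB match, 3.44% an interferon-stimulated response element and 3.2% a PU.1 match. Both Il1r1 windows held a C/EBP match, and 1 of them also a kappaB match that overlaps it. The Il18 window held a TATA box on the other strand at −175, far from the start site, and the Il18bp window a C/EBP match 49 bases before the start site. The Il1rap window held an interferon-stimulated response element, and the Il1r2 window none of the motifs. A match is no more than a run of letters, and the lack of one says nothing of the factor.

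Il1r2 (ENSMUSG00000026073.13; GRCm38 chromosome 1, 40074079 to 40125231, plus strand), the decoy receptor, had the widest fall from untreated cells among the 8 genes, in both arms. It was at 418, 477 and 418 CPM in untreated libraries. After 4 h it was at 46.3, 46.4 and 42.5 CPM with FcMR and 42.1, 45.8 and 34.4 CPM with isotype, and these groups overlapped. At 12 h it was at 11.9, 10.3 and 10.2 CPM with FcMR and 6.62, 7.19 and 5.5 CPM with isotype, and at 24 h at 10.2, 15.8 and 11 CPM against 4.81, 4.5 and 3.99. From 12 h on, each FcMR library was above each isotype library, and all were far under the untreated ones. Relative to untreated cells, isotype libraries were 10.8-fold, 69.6-fold and 98.1-fold lower at 4, 12 and 24 h, with log2 fold changes of −3.43, −6.12 and −6.62 (edgeR adjusted p 9.31e-12, 3.14e-14 and 3.36e-14). FcMR libraries were 9.69-fold, 40.6-fold and 34.9-fold lower than the same untreated libraries. Between FcMR and isotype the log2 fold change was 0.15 (SE 0.142, edgeR adjusted p 0.529, 95% interval −0.148 to 0.451) at 4 h, 0.78 (SE 0.156, edgeR adjusted p 0.00163) at 12 h and 1.49 (SE 0.17, edgeR adjusted p 3.78e-06) at 24 h.

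Il1r2 is also a gene of neutrophils, and marker lists of other myeloid cells moved over the same course. The 7 genes of the granulocyte list, all detected, summed to 370 to 425 CPM in untreated libraries, 183 to 256 CPM at 4 h, 41.4 to 67.8 CPM at 12 h and 14.3 to 50.6 CPM at 24 h. At 24 h they were lower with FcMR (14.3 to 26 CPM) than with isotype (35.5 to 50.6 CPM), the reverse of Il1r2. Most of this gap lay in Ngp (group means of 13.8 CPM with FcMR and 26 CPM with isotype) and Ltf (2.5 and 12.2 CPM). Camp alone of the list went the other way (2.99 and 2.09 CPM), and Elane was near 0 in both arms (0 and 0.0327 CPM). The 3 genes of the eosinophil list went from 607 to 806 CPM in untreated libraries to 59.9 to 112 CPM at 24 h. The 5 genes of the mast cell and basophil list summed to 52.6 to 54.3 CPM in untreated libraries. At 24 h they summed to 26.8 to 29.7 CPM with FcMR and 17.7 to 20.4 CPM with isotype. Most of this gap lay in Kit, with group means of 17.8 CPM with FcMR and 8.47 CPM with isotype. Cpa3 was nearly level (3.11 and 2.9 CPM), and Gata2 went the other way (2.49 and 4 CPM). The part of these cells in the level of Il1r2 was not tested, and in bulk RNA fewer cells of a type cannot be told apart from less RNA per cell.

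**Figure D3:**
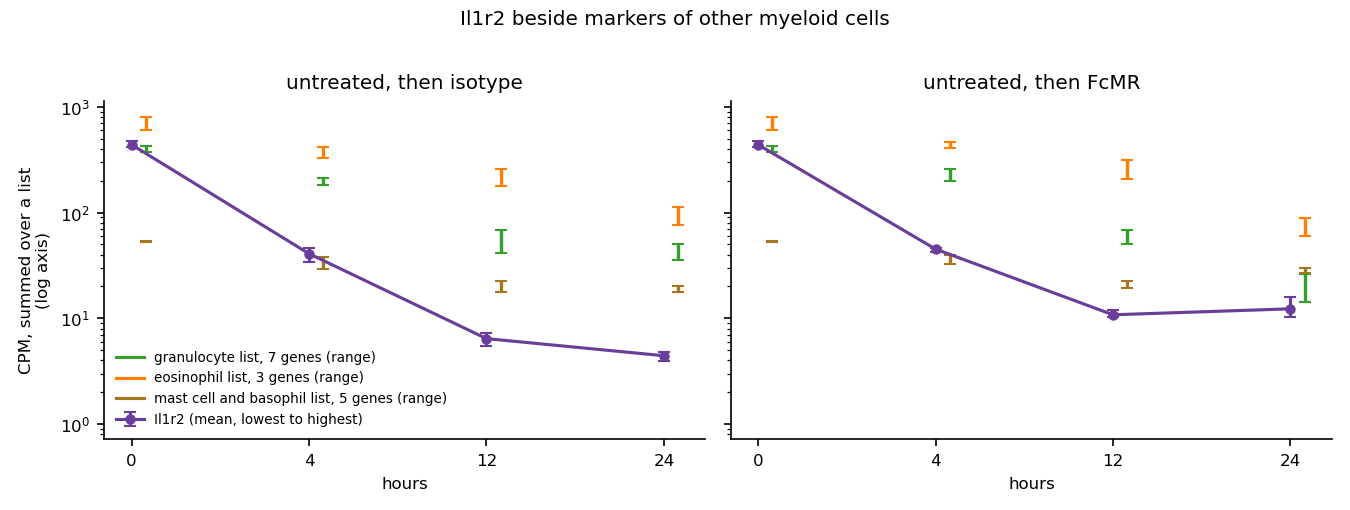
Il1r2 (purple, mean with lowest to highest library) beside the summed CPM of 3 marker lists (bars from lowest to highest library), log axis, against hours (evenly spaced), for untreated followed by isotype (left) and untreated followed by FcMR (right), 3 libraries a group. Il1r2 goes from a mean of 438 CPM to 4.43 CPM with isotype and 12.3 CPM with FcMR at 24 h, while the granulocyte list goes from 370 to 425 CPM to 35.5 to 50.6 CPM and 14.3 to 26 CPM.

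Il1r1 (ENSMUSG00000026072.12; GRCm38 chromosome 1, 40225080 to 40317257, plus strand), the receptor that signals, was low throughout, with 8 to 283 counts a library. Untreated libraries held 2.23, 3.17 and 3.92 CPM. At 4 h FcMR libraries held 2.05, 1.54 and 1.49 CPM and isotype libraries 4.74, 3.79 and 2.09 CPM. The groups were apart by a small margin, between FcMR replicate 1 and isotype replicate 3. At 12 h FcMR libraries held 8.15, 5.33 and 5.73 CPM and isotype libraries 4.66, 5.72 and 4.29 CPM, which overlapped. At 24 h they held 6.89, 8.97 and 7.68 CPM against 4.9, 4.93 and 4.63 CPM and did not overlap. The log2 fold change was −1.02 (SE 0.289, edgeR adjusted p 0.0195) at 4 h, 0.41 (SE 0.243, edgeR adjusted p 0.317) at 12 h and 0.71 (SE 0.249, edgeR adjusted p 0.0532, 95% interval 0.182 to 1.23) at 24 h. The call at 4 h was lost without FcMR replicate 2 (edgeR adjusted p 0.108), FcMR replicate 3 (0.0847), isotype replicate 1 (0.158) or isotype replicate 2 (0.0737), without the filter on low counts (0.0727) and in a fit of these 6 libraries alone (0.139). Without both libraries out of title order it was kept (−1.32, edgeR adjusted p 0.0011), and the difference at 24 h was then called too (0.72, edgeR adjusted p 0.0091). The 4 genes of the stroma list, a source of Il1r1 in many tissues, summed to 10.3 to 16.6 CPM with FcMR and 2.02 to 2.79 CPM with isotype at 12 h. At 24 h they summed to 7.83 to 10.6 and 0.322 to 1.37 CPM. Most of the gap lay in Pdgfrb at 12 h (group means of 11.6 and 1.59 CPM). At 24 h it lay in Pdgfrb (5.17 and 0.187 CPM) and Dcn (2.97 and 0.0981 CPM). Col1a1 differed less (1.11 and 0.623 CPM at 12 h, 0.676 and 0.58 CPM at 24 h). Col3a1 averaged at most 0.156 CPM in each group. At 4 h, when Il1r1 was lower with FcMR, the list was at 4.47 to 6.06 CPM with FcMR and 2.15 to 3.79 CPM with isotype. Its part in the result was not tested.

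Il1rap (ENSMUSG00000022514.14; GRCm38 chromosome 16, 26581704 to 26730117, plus strand) encodes the co-receptor shared by several receptors of the family. It was at 37.8, 41.3 and 38.3 CPM in untreated libraries. At 4 h it was at 44.7, 41.8 and 42.5 CPM with FcMR and 28.9, 37.3 and 24.4 CPM with isotype. These groups did not overlap, yet the difference of 0.51 on the log2 scale (SE 0.175, edgeR adjusted p 0.0506) missed the threshold. It was called with RLE factors (edgeR adjusted p 0.0387), without the filter (0.032), without isotype replicate 2 (0.0124), with the replicate number as a block (0.0499), after GC correction (0.69, edgeR adjusted p 2.77e-05), by DESeq2 (0.58, DESeq2 adjusted p 0.019) and by limma on the authors' normalized values (0.69, limma adjusted p 0.0137). At 12 h FcMR libraries held 27.7, 17.2 and 19.6 CPM and isotype libraries 18.7, 12.9 and 16.4, and at 24 h 23.1, 27.8 and 20.5 against 18.7, 17.9 and 19.3. The log2 fold changes were 0.41 (SE 0.175, edgeR adjusted p 0.134) and 0.36 (SE 0.177, edgeR adjusted p 0.178). Relative to untreated cells, Il1rap fell by 1.27 with isotype at 12 h (edgeR adjusted p 1.24e-05) and by 1.07 at 24 h (edgeR adjusted p 9.03e-05). Its soluble and membrane forms are not separated in gene-level counts.

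Within a library, Il1r2 minus Il1r1 went from 7.11 ± 0.392 on the log2 CPM scale (SD, n = 3) in untreated cells to 3.54 ± 0.423, 0.39 ± 0.0931 and −0.12 ± 0.0906 with isotype at 4, 12 and 24 h. With FcMR it was 4.64 ± 0.204, 0.76 ± 0.203 and 0.62 ± 0.162. The FcMR libraries were above the isotype libraries at each of the 3 times, and the fall from untreated cells was larger than this gap from 4 h on.

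Il18 (ENSMUSG00000039217.13; GRCm38 chromosome 9, 50554827 to 50581840, plus strand), the agonist that prompts lymphocytes to make interferon-γ, was at 12.3, 12.4 and 11 CPM in untreated libraries. At 4 h it was at 16.8, 15.8 and 8.2 CPM with FcMR and 6.61, 10.3 and 6.84 CPM with isotype, and FcMR replicate 3 fell inside the isotype range. At 12 h it was at 9.83, 8.38 and 7.67 CPM with FcMR and 4.15, 4.25 and 3.8 CPM with isotype, with no overlap. At 24 h it was at 5.35, 5.22 and 4.51 CPM against 5.1, 3.97 and 3.22 CPM, which overlapped. The level came down in both arms after 4 h. The log2 fold change was 0.83 (SE 0.227, edgeR adjusted p 0.0166) at 4 h, 1.09 (SE 0.227, edgeR adjusted p 0.0022) at 12 h and 0.29 (SE 0.242, edgeR adjusted p 0.467, 95% interval −0.219 to 0.801) at 24 h. The call at 4 h was lost without FcMR replicate 1 (edgeR adjusted p 0.0913) or 2 (0.0927), or isotype replicate 1 (0.0852) or 3 (0.0519), in a fit of the 6 libraries alone (0.18), and with limma on the authors' normalized values (limma adjusted p 0.0543). The overlapping genes Bco2 and Tex12 had group means of at most 2.12 CPM.

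Il18bp (ENSMUSG00000070427.4; GRCm38 chromosome 7, 102014885 to 102018690, minus strand), which neutralises IL-18 and is known as a gene induced by interferon, rose in both arms. It was at 6.41, 11 and 9.56 CPM in untreated libraries. After 4 h it was at 44.5, 41.8 and 34.5 CPM with FcMR and 25.6, 19.7 and 23.4 CPM with isotype. At 12 h it was at 74.6, 80.2 and 75.8 CPM with FcMR and 49.7, 57.7 and 55.8 CPM with isotype, and at 24 h at 73.7, 77.9 and 78 against 50.4, 56.5 and 56.9. No FcMR library overlapped the isotype libraries of its time, and all treated libraries were above the untreated ones. The log2 fold change of FcMR over isotype was 0.82 (SE 0.146, edgeR adjusted p 0.000703) at 4 h, 0.50 (SE 0.138, edgeR adjusted p 0.0174) at 12 h and 0.49 (SE 0.139, edgeR adjusted p 0.0172) at 24 h. At 12 h the call was lost without FcMR replicate 2 (edgeR adjusted p 0.063) or isotype replicate 1 (0.0972), and at 24 h without isotype replicate 1 (0.0787). Isotype over untreated was larger, at 1.33, 2.57 and 2.58 (edgeR adjusted p 2.01e-06, 3.08e-10 and 3.59e-10). Il18bp overlaps Numa1 on the other strand, which had group means of 53.5 to 105 CPM and a lower mean with FcMR than with isotype at each of the 3 times.

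Il18bp minus Il18 within a library was −0.43 ± 0.432 on the log2 CPM scale (SD, n = 3) in untreated cells. With isotype the successive times gave 1.54 ± 0.537, 3.70 ± 0.146 and 3.72 ± 0.413, and with FcMR 1.62 ± 0.38, 3.14 ± 0.206 and 3.90 ± 0.163. The groups overlapped at 4 and 24 h, and at 12 h the FcMR libraries (2.91 to 3.28) were below the isotype libraries (3.54 to 3.83). In the IL-18 pair the arms were thus separated at 12 h alone, where in the pair of Il1rn and Il1b they were separated at each time.

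**Figure D4:**
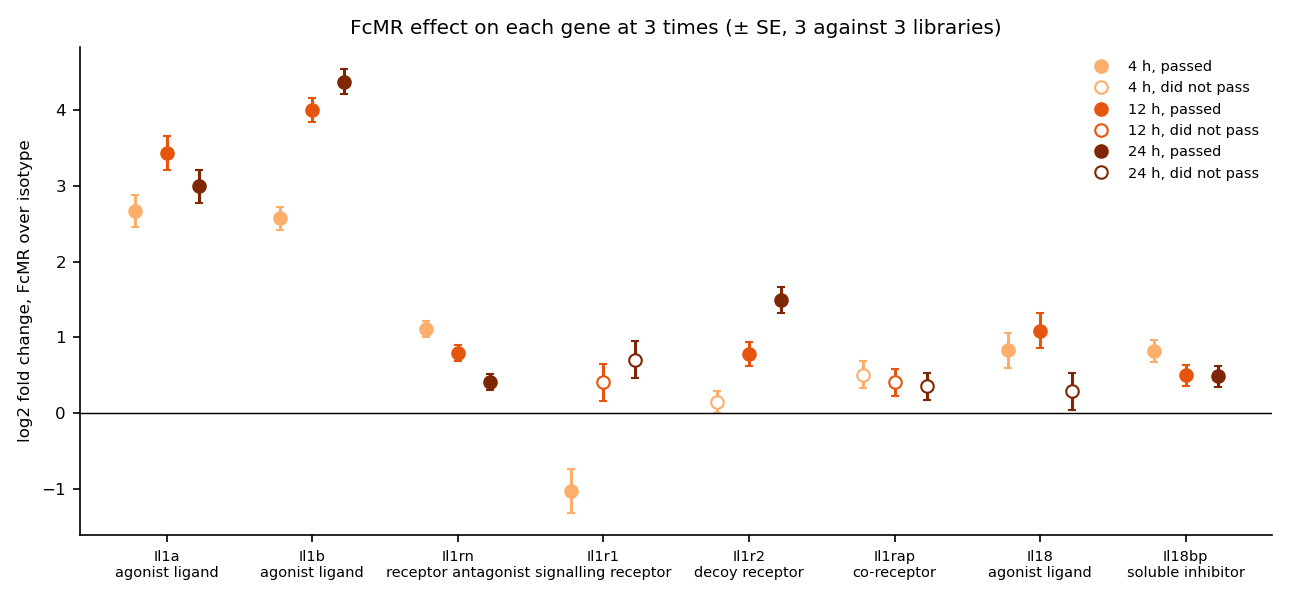
Log2 fold change of FcMR over isotype for each of the 8 genes at 4, 12 and 24 h, with the standard error, from 3 against 3 libraries. Filled points passed the edgeR test at an adjusted p under 0.05 and open points did not; Il1b rises from 2.57 to 4.37 and Il1rn comes down from 1.11 to 0.41.

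The FcMR effect was then compared between times. A joint edgeR test over 4, 12 and 24 h called 4 of the 8 genes, where 11% of all genes were called: Il1b (edgeR adjusted p 3.3e-05), Il1r2 (0.00204), Il1rn (0.0119) and Il1r1 (0.0123). From 4 to 24 h the effect rose by 1.80 for Il1b, 1.34 for Il1r2 and 1.73 for Il1r1 on the log2 scale, and fell by 0.70 for Il1rn. For Il1a (edgeR adjusted p 0.19), Il18 (0.254), Il18bp (0.462) and Il1rap (0.935) a difference between times did not pass. Without FcMR 4 h replicate 2, 2 genes were called, as Il1rn (edgeR adjusted p 0.0519) and Il1r1 (0.0612) no longer passed. Il1r1 was also lost without FcMR 4 h replicate 3 (0.052) or isotype 4 h replicate 1 (0.0699). Without isotype 4 h replicate 3, which stands out of title order, Il1a was called in addition (edgeR adjusted p 0.032).

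The isotype arm was compared with untreated cells to give the background of treatment and culture. At 4 h, 6 of the 8 genes were called, 4 higher and 2 lower, where 35.6% of all genes were (20.4% higher, 15.2% lower). At 12 h 7 were called, 4 higher and 3 lower, beside 41.6% of all genes (22% higher, 19.6% lower). At 24 h 6 were called, 2 higher and 4 lower, beside 42.2% of all genes (21.3% higher, 20.9% lower). The 2 arms did not overlap for 7, 8 and 7 of the 8 genes at the 3 times, beside 42.4%, 61.8% and 62.7% of all genes. Il1a rose by 3.42 (SE 0.219, edgeR adjusted p 1.05e-09) and Il1b by 3.21 (SE 0.155, edgeR adjusted p 2.74e-11) at 4 h. At 12 h they were still 0.67 (edgeR adjusted p 0.0129) and 0.52 (edgeR adjusted p 0.00753) above untreated cells. At 24 h Il1b was back at the untreated level within its error (−0.19, SE 0.144, edgeR adjusted p 0.302), and Il1a fell by 0.54 (edgeR adjusted p 0.0436), a call that was lost without any 1 of the 6 libraries (edgeR adjusted p from 0.0562 to 0.16). Il1rn rose by 1.20, 1.25 and 1.02 (edgeR adjusted p 7.04e-08, 3.25e-08 and 4.48e-07) and so stayed up after Il1a and Il1b had come down. Il18 fell by 0.60, 1.56 and 1.53 (edgeR adjusted p 0.0462, 2.29e-05 and 4.11e-05), and the call at 4 h was lost without untreated replicate 1, 2 or 3 or isotype replicate 1 or 3 (edgeR adjusted p from 0.0634 to 0.173). Il1r1 was not called at these times (0.16, 0.62 and 0.62, edgeR adjusted p 0.721, 0.0588 and 0.0616), though without untreated replicate 3 it was at 12 and 24 h (0.81 at both, edgeR adjusted p 0.0346 and 0.0357). Il1rap was called at 4 h without isotype replicate 2 (−0.59, edgeR adjusted p 0.0213), which it was not with it (−0.38, edgeR adjusted p 0.1).

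Against the same untreated libraries, 6 of the 8 genes changed after 4 h of FcMR, 4 upwards and 2 downwards. After 12 h 7 changed, 5 of them upwards, and after 24 h all 8 changed, again 5 upwards. Of all genes 48.2% (22.3% higher, 25.9% lower), 48.1% (24.7% and 23.4%) and 51.4% (26.0% and 25.4%) were called. Il1a was 68.2-fold and Il1b 55.1-fold higher at 4 h, and they were 5.47-fold and 18.1-fold higher at 24 h. Il1rn was 4.98-fold higher at 4 h and 2.69-fold at 24 h. Il1r1 turned from lower at 4 h (−0.87, SE 0.275, edgeR adjusted p 0.015) to higher at 24 h (1.33, SE 0.251, edgeR adjusted p 0.000253). The call at 4 h was lost without FcMR replicate 2 (edgeR adjusted p 0.0869) or 3 (0.0618), or untreated replicate 3 (0.0751). From 4 to 24 h, all 8 genes changed with FcMR, 2 higher (Il1r1 by 2.20 and Il18bp by 0.92) and 6 lower, where 49.6% of all genes were called (25.9% higher, 23.7% lower). With isotype 6 changed, 1 higher and 5 lower, beside 39.0% of all genes (17% higher, 22.1% lower). Of these, Il1rap (edgeR adjusted p 0.0708) and Il18 (0.0658) were lost without isotype 4 h replicate 2, and Il18 also without isotype 24 h replicate 3 (0.0506).

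Other genes of the pathway were taken from a list of 30, of which 27 were in the table and tested. At 4, 12 and 24 h, 10, 10 and 9 of the 27 were called higher with FcMR, beside 8.62%, 8.61% and 11.4% of all genes. Of the 27, 2, 4 and 3 were called lower, beside 9.13%, 7.49% and 9.44% of all genes. Over the 27, the median log2 fold change was 0.16, 0.14 and 0.15. Among the called genes, the highest at 4 h were Il36a, an agonist of the same ligand family (2.16, SE 0.453, edgeR adjusted p 0.00252), Nlrp3, the sensor of an inflammasome (1.25, SE 0.0886, edgeR adjusted p 4.11e-08), and Peli1, a ubiquitin ligase of the receptor relay (1.13, SE 0.111, edgeR adjusted p 1.93e-06). The lower ones were Il18r1, the ligand-binding chain of the IL-18 receptor (−1.07, SE 0.221, edgeR adjusted p 0.00233), and Il1rl2, the receptor for IL-36 (−0.68, SE 0.186, edgeR adjusted p 0.016). Il36a was scarce, with a mean of 14 CPM with FcMR and 3.19 CPM with isotype at 4 h.

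Among the called genes at 12 h, the highest were Il36a (1.84), Nlrp3 (1.39) and Casp4 (1.29), which encodes the caspase that senses intracellular lipopolysaccharide. The lowest called were Il18r1 (−1.86), its partner chain Il18rap (−1.16) and Sigirr (−1.03), an inhibitory receptor of the family (edgeR adjusted p 3.55e-05, 0.0101 and 0.0332). These were scarce at 12 h, with means of 0.475, 2.35 and 1.42 CPM with FcMR and 1.74, 5.23 and 2.95 CPM with isotype. Il18r1 had at most 11 counts in an FcMR library of 12 h. Il36a was scarce too, with means of 2.5 CPM with FcMR and 0.571 CPM with isotype at 12 h. Among the called genes at 24 h, the highest were Irak3 (1.37), a kinase-like brake on the relay, Il36g (1.33), another IL-36 agonist, and Il33 (1.27), an alarm ligand of the family. The lowest called were Il18r1 (−1.67), Il18rap (−1.62) and Pycard (−0.56), the adaptor of inflammasomes. Larger differences that did not pass at 24 h were those of Il36a (2.38, SE 0.895, edgeR adjusted p 0.0711), Il1rl1, the receptor for IL-33 (−0.80, edgeR adjusted p 0.0774), and Sigirr (−0.58, edgeR adjusted p 0.231). Il36a was near the floor at 24 h, with means of 0.563 CPM with FcMR and 0.108 CPM with isotype. No isotype library of 24 h held more than 2 counts of Il36a, so the size of its difference is poorly known. In mean level, Il18r1 was at 13.5 ± 1.33 CPM in untreated cells, and at 1.59 ± 0.108 CPM with FcMR and 5.12 ± 0.69 CPM with isotype at 24 h (SD, n = 3). Il18rap was at 33.6 ± 2.41 CPM in untreated cells, and at 2.84 ± 0.688 and 9.06 ± 1.69 CPM at 24 h. Both chains were thus lower at 24 h than in untreated cells, and lower with FcMR than with isotype. Of the 7 genes of processing and release, 2, 4 and 4 were called higher at the 3 times (8.62%, 8.61% and 11.4% of all genes), and Pycard was called lower at 12 and 24 h (7.49% and 9.44% of all genes). Casp1, which cuts the precursors of IL-1β and IL-18, was called at 12 h (0.77, edgeR adjusted p 0.00438) and 24 h (0.67, edgeR adjusted p 0.0102) but not at 4 h (0.15, edgeR adjusted p 0.621), and the joint test over times did not pass (edgeR adjusted p 0.201).

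**Figure D5:**
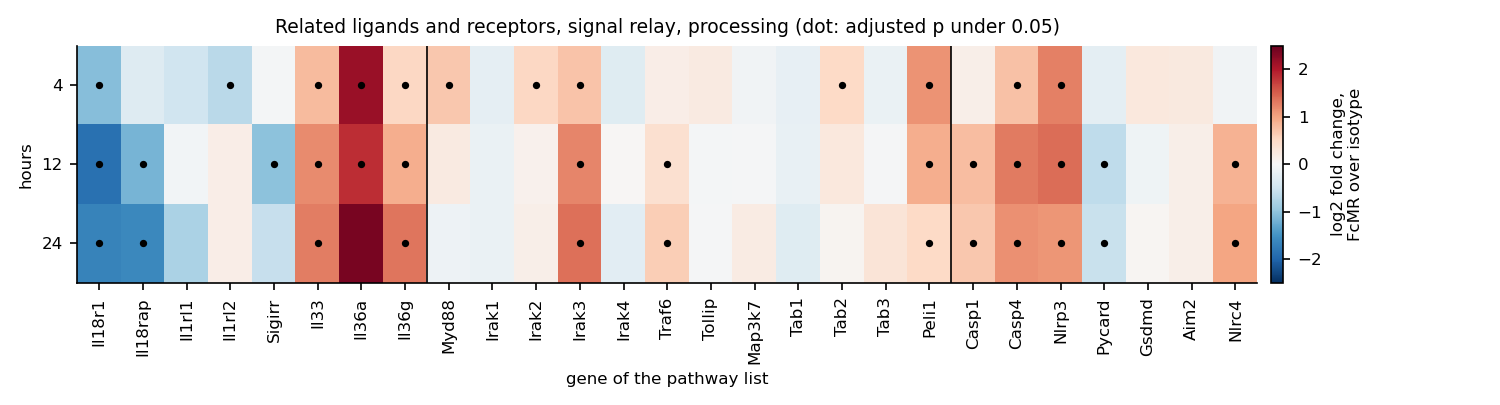
Log2 fold change of FcMR over isotype at 4, 12 and 24 h (rows) for the 27 tested genes of the pathway list (columns), in 3 blocks for related ligands and receptors, signal relay, and processing and release. Dots mark an edgeR adjusted p under 0.05; Il18r1 is blue at each time (−1.07, −1.86 and −1.67) and Nlrp3 red (1.25, 1.39 and 1.10).

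For each gene the 3 genes with the most similar course were found by Pearson correlation of log2 CPM over the 21 libraries, among 11109 genes with a mean log2 CPM of at least 1. Libraries of a group share their treatment and time, so these values describe the course of the groups. Il1a was nearest to Ptgs2 (0.993), which encodes the inducible enzyme of prostaglandin synthesis, then Dusp16 (0.985) and Ccrl2 (0.983). Il1b was nearest to Fpr1 (0.981), a receptor for formylated peptides, then Rdh11 (0.979) and Slmapos2 (0.973). The nearest to Il1rn were Zeb1 (0.971), Car13 (0.969) and Inpp5b (0.968). Il1r2 was nearest to H2-Ob (0.98), Lepr (0.961) and Ss18 (0.953), and Il1rap to Galnt3 (0.958), Ugcg (0.952) and Pcbp2 (0.948). Il18bp was nearest to Ms4a6d (0.98), Cfb (0.973), a complement factor, and Itpr2 (0.973). The low genes had weaker neighbours, Il1r1 with Zfp873 (0.942), Prepl (0.926) and Zfp870 (0.921), and Il18 with St7 (0.92), Irf4 (0.901) and Mki67 (0.9). None of the 8 genes was among the 3 nearest of another, though some of them followed each other closely. Among pairs of the 8, the correlation was highest for Il1a and Il1b (0.956) and lowest for Il1r2 and Il18bp (−0.886). Il1rn had 0.826 with Il1a and with Il1b.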

How the data were processed

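Per the labels, RNA of the macrophages was sequenced from 1 end to 75 bases after TruSeq library construction. CASAVA 1.8.2, kallisto 0.44.0, DESeq2 and the builds mm10 and GRCm38 are named in the submitters' processing notes, and the annotation is not given in the sources used here. The deposited raw table holds whole numbers per gene and was treated as estimated counts (rounding changed none). The normalized table deposited by the authors was taken as a signal that is linear and relative to factors that differ between genes and libraries. Gene IDs were matched to GENCODE M21 (GRCm38) for 23187 of 23250 genes and for all 8 members. Groups come from the sample titles.

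One fit of all 21 libraries was made with edgeR 4.0.16 (R 4.3.3) on the estimated counts, with TMM, filterByExpr with a minimum of 10 counts, 1 coefficient per group and Benjamini-Hochberg adjustment over 13468 genes. A gene was called at an adjusted p-value under 0.05. CPM are after TMM, and within-library differences use log2 CPM with a prior count of 0.5 as an alternative to 2. Alternatives were DESeq2 1.42.0, RLE factors, no filter, a filter on a mean of 10 counts, limma 3.58.1 on log2 of the authors' normalized signal plus 1, the compared groups alone, the replicate number as a block, GC correction, each library left out and both libraries out of title order left out. The pipeline was tested on simulated data. Members and lists were chosen with earlier results of these data known. The text names all members, for the pathway list the called genes with the 3 highest and 3 lowest fold changes at each time, and 3 neighbours per member; Casp1, and Il36a, Il1rl1 and Sigirr at 24 h, were named after their values were seen.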

Additional observations from a re-analysis of the deposited data

Results flagged for a closer look

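Between 4, 12 and 24 h the effect of FcMR over isotype differed by the joint edgeR test for 4 of the 8 genes. The adjusted p from edgeR was 3.3e-05 for Il1b, whose effect was 1.80 larger at 24 h than at 4 h on the log2 scale, and 0.00204 for Il1r2, with 1.34. It was 0.0119 for Il1rn, whose effect was smaller at 24 h (−0.70), and 0.0123 for Il1r1, whose effect turned from below to above 0 (1.73). Leaving out FcMR 4 h replicate 2 ended the calls of Il1rn and Il1r1, and Il1r1 rested on 8 to 41 counts in the FcMR 4 h libraries. Groups held 3 libraries each, so single libraries were not tested for standing apart within a group.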

How the results depend on the processing

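Of 1536 alternative values of 96 results (8 genes in 12 comparisons), 1458 kept direction and side of the threshold, 45 lost a call, 29 gained one and 4 turned direction, none of these 4 called. Il1r1 in isotype over untreated at 4 h (0.16) became −0.07 after GC correction and −0.14 to 0.45 with 1 library left out, and Il1rn in isotype 24 h over 4 h (−0.19) became 0.18 with limma on the authors' normalized values. Members called by the joint test (4) ranged from 2 (without FcMR 4 h replicate 2) to 5 with 1 library left out. With the authors' normalized values, the FcMR minus isotype change at 12 h became −3.37 (from −3.20) for Il1rn minus Il1b and −2.8 (from −2.62) for Il1rn minus Il1a, and at 24 h −4.07 (from −3.96) for Il1rn minus Il1b and 0.61 (from 0.75) for Il1r2 minus Il1r1. Over all genes, calls of FcMR over isotype at 4 h (2390) ranged from 868 in a fit of these groups alone to 3898 without both libraries out of title order, at 12 h (2169) reached 3417 after GC correction, in isotype over untreated at 4 h (4792) went down to 2881, and in the joint test (1484) ranged from 925 without the filter to 3027 after GC correction. With the replicate number as a block, 7, 6 and 5 members were called in FcMR over isotype. The block added Il1rap at 4 h (edgeR adjusted p 0.0499) and, in FcMR over untreated at 12 h, Il18 (edgeR adjusted p 0.0375). No comparison had the correlation of every pair of equal replicate number over 0.1, though a single pair reached 0.338. With 3 libraries a group, this check cannot settle whether the numbers pair the libraries. Il1r1 rested on as few as 8 counts in a library, and each group held 3 libraries.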

Other observations

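The authors' normalized value over the raw value differs between genes within a library. Relative to the median ratio of each library, the highest over the lowest ratio of a gene was 1 for Il1a, 1.03 for Il1b, 1.34 for Il1rn and 1.63 for Il1r1, beside a median of 1.26 over 13034 genes. For Il1rn the relative ratio was 1.13 to 1.14 in isotype libraries of 24 h and 0.875 to 0.969 in those of 4 h, which are the groups between which the direction of Il1rn turned with these values.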
